A study of Mus musculus with 18 samples.

Results

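Immediate early genes are switched on within minutes of a stimulus, without new protein synthesis, and 8 of them were followed here across the arrays of a mouse embryonic stem cell series: Egr1, Fos, Fosl1, Jun, Junb, Jund, Ier2 and Ier3. They were chosen by gene symbol in the platform annotation, which gave 10 of the 46632 probes, 2 each for Junb and Ier3 and 1 for each of the others. The series held total RNA of CGR8 embryonic stem cells, of strain 129P2/Ola, on 18 Illumina BeadChip arrays in 9 groups of 2, and addressed genes controlled by the phosphatase calcineurin and its target NFAT. Untreated cells were taken after 0, 1 and 3 days without leukaemia inhibitory factor (LIF), the cytokine that keeps mouse embryonic stem cells undifferentiated, and other cultures at the same days with cyclosporin A (CsA), a calcineurin inhibitor. Cells of the ideltaCnAES line, in which removal of tetracycline (Tc) induces deltaCnA, an active form of calcineurin A, were taken at days 0, 1 and 4 of Tc withdrawal. The labels do not say how long the day 0 CsA cells had received CsA, whether deltaCnA cells were kept in LIF, how many clones the deltaCnA line comprised, or whether the arrays of a group came from different cultures, and a p-value here reflects array-to-array spread, which may be technical.

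Egr1 is a zinc finger transcription factor, and Fos, Fosl1, Jun, Junb and Jund are subunits of AP-1, a dimer of 1 Jun protein with a Fos, a Jun or a related protein. Transcription of Egr1 and Fos is driven by serum response factor (SRF) with its ERK-phosphorylated Elk partners and by CREB. In embryonic stem cells Junb is a target of STAT3, the factor that LIF activates. ERK signalling, which induces Egr1 and Fos, is also the pathway that moves mouse embryonic stem cells out of self-renewal. Ier2 and Ier3 are early response genes outside AP-1, and Ier3 is known for its role in cell survival and ERK signalling.

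In the GRCm38.p6 assembly of RefSeq, Fos lies at chr12:85473890-85477274, Fosl1 at chr19:5447698-5455938 and Jun at chr4:95049036-95052222. Junb lies at chr8:84976909-84978748, Jund at chr8:70697739-70700616, Ier2 at chr8:84661331-84662852 and Ier3 at chr17:35821713-35822911. The RefSeq promoter table held 5 of the 8 genes (Fos, Jun, Junb, Jund and Ier3). Shown here are the 250 bases before the transcript start of Fos (chr12:85473640-85473889, plus strand), Junb (chr8:84978749-84978998, minus strand) and Ier3 (chr17:35821463-35821712, plus strand), because these genes fell together at day 3 of LIF withdrawal with CsA. Each is written 5′ to 3′ along its gene, and capitals mark the motif matches given after the sequences.
Fos: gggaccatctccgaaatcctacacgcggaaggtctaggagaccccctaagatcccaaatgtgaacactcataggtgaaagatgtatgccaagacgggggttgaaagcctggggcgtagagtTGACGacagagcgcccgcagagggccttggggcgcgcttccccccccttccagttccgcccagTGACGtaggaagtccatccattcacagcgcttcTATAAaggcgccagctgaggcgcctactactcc
Junb: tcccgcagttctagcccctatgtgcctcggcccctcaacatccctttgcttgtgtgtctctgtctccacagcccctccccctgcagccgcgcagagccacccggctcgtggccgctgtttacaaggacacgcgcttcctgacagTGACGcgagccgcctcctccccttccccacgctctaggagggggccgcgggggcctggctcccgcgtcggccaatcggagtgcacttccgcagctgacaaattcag
Ier3: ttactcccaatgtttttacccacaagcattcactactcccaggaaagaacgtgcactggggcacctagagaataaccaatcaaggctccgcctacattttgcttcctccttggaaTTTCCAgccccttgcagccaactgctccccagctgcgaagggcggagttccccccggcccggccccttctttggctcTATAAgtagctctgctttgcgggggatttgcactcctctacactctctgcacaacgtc

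The Fos promoter held TGACG, the half-site of the CREB element, from bases -129 and -66, and TATAA, the core of the TATA box, from base -33, where -1 is the last base before the start. Junb held TGACG from base -106. Ier3 held TGGAAA, a form of the core that NFAT binds, on the opposite strand from base -135, and TATAA from base -58. TGACG occurred in 17.8% of the 32851 promoter windows of the same length in the table, TATAA in 22.8% and TGGAAA in 18.6%. Both strands were searched in the 5 promoters. No match was found to the CArG box (the SRF element, 1.47% of all windows), TGACGTCA (1.55%), TGACTCA (4.46%) or TTCNNNGAA (a STAT element, 7.02%). Nor was a match found to GCGNGGGCG (an Egr1 element, 4.70%) or CCGGAA (a form of the ETS site, longer than its GGAA core, 12.03%). A further 3 motifs were added after those 6 and TGGAAA had been searched. They were TGACG, which lies inside the longer CREB element above, the TATA core, and the AP-1 type element TGACATCA (2.93% of windows), which matched in Jun from base -45. A match is a description of the letters, and a window without one says nothing of the factor.

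Intensities and detection p-values were those of the authors' deposited table, and levels are given as log2 of the background-corrected, quantile-normalized intensity. A probe was called detected at a p-value under 0.05 and was tested if some group had it detected on both of its arrays, which left 6 of the 10 probes, each standing for 1 gene. Fosl1 was detected on 0 of 18 arrays, as were the second probes of Junb and Ier3, and Ier2 was detected on 1 of 18, a day 3 array of LIF withdrawal. These 4 probes were not tested. Jun passed only through the 2 day 3 arrays of LIF withdrawal, the group in which it was highest, so it had to differ from the other groups.

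Array quality was even: mean intensity ran from 286.9 to 484, and 40.4% to 44.1% of probes were detected. The lowest intensities were -58.0 to -47.0 on the deltaCnA arrays and -29.4 to -23.7 on the others, so the line and the array background cannot be told apart. Of 9 tested embryonic stem cell markers, 9 were detected on both day 0 arrays of LIF withdrawal and of CsA, and 8 on both day 0 arrays of the deltaCnA line.

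Egr1 (chr18:34861207-34864956) was detected on 17 of 18 arrays. During LIF withdrawal its log2 levels were 10.33 and 9.77 at day 0, 9.71 and 9.07 at day 1, and 8.84 and 8.93 at day 3. With CsA they were 8.84 and 8.33 at day 0, 8.49 and 8.27 at day 1, and 4.47 and 5.49 at day 3. In the deltaCnA line they were 9.64 and 9.46 at day 0, 7.67 and 8.20 at day 1, and 8.49 and 8.22 at day 4. Untreated day 0 cells were highest, and the CsA day 3 arrays lay far below all others, with 1 of them, whose raw intensity was -4.12, not detected. In the order of group means, deltaCnA day 0 overlapped untreated day 1, and untreated day 3, CsA day 0, CsA day 1 and deltaCnA day 4 formed a run in which neighbours overlapped.

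Egr1 fell by 1.17 ± 0.26 (SE, log2) between days 0 and 3 of LIF withdrawal, 2.25-fold (limma, adjusted p = 0.00102), and the day 1 change of -0.66 ± 0.26 did not pass (adjusted p = 0.144). With CsA it fell by 3.61 ± 0.26 over the 3 days, at least 9.59-fold (adjusted p = 6.71e-10), and between days 1 and 3 alone it fell by 3.40 ± 0.26 (at least 8.33-fold, adjusted p = 1.07e-08), while the day 1 change was -0.20 ± 0.26 (adjusted p = 0.842). A fold written as "at least" was taken against the higher, on each array, of the probe's own value and the lowest value of a detected probe, because the dimmer group was not detected on 1 or both of its arrays.

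CsA-treated cells had less Egr1 than untreated cells at each day. The log2 difference was -1.47 ± 0.26 at day 0 (2.76-fold, adjusted p = 0.000881), -1.01 ± 0.26 at day 1 (2.01-fold, adjusted p = 0.0152) and -3.90 ± 0.26 at day 3 (at least 11.8-fold, adjusted p = 1.03e-10). In these bulk samples, fewer cells expressing a gene and less RNA per cell cannot be told apart. The day 1 call was lost without untreated day 1 replicate 1 (adjusted p = 0.209) and without CsA day 1 replicate 1 (0.0582) or replicate 2 (0.106). After deltaCnA induction Egr1 fell by 1.61 ± 0.26 at day 1 (3.05-fold, adjusted p = 0.000471) and by 1.19 ± 0.26 at day 4 (2.29-fold, adjusted p = 0.00975). The day 4 call was lost when any 1 of the 4 arrays compared was left out, with adjusted p = 0.0545 to 0.123.

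Fos, the inducible partner of the Jun proteins, was dim and was detected on 12 of 18 arrays. Its log2 levels during LIF withdrawal were 7.05 and 6.43 at day 0, 5.28 and 4.90 at day 1, and 5.98 and 6.51 at day 3. With CsA the values were 6.20 and 5.63 at day 0, 4.59 and 4.64 at day 1, and 4.82 and 4.70 at day 3. In the deltaCnA line they were 5.81 and 5.94 at day 0, 5.41 and 5.06 at day 1, and 6.42 and 6.0 at day 4. Fos was not detected on the 4 CsA arrays of days 1 and 3, nor on replicate 2 of untreated day 1 and of deltaCnA day 1. Untreated days 0 and 3, deltaCnA days 4 and 0 and CsA day 0 formed an overlapping upper range.

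Without CsA, Fos fell by 1.65 ± 0.24 at day 1 (at least 2.82-fold, adjusted p = 4.01e-05) and rose again between days 1 and 3 by 1.16 ± 0.24 (at least 2.00-fold, adjusted p = 0.000588). The net change to day 3 was -0.49 ± 0.24 (adjusted p = 0.11); it passed without untreated day 0 replicate 2 (adjusted p = 0.0296) or without untreated day 3 replicate 2 (0.0445). With CsA, Fos fell by 1.30 ± 0.24 at day 1 (at least 1.71-fold, adjusted p = 0.00139) and had fallen by 1.15 ± 0.24 from its start at day 3 (at least 1.74-fold, adjusted p = 0.000766). The day 1 call was lost without CsA day 0 replicate 1 (adjusted p = 0.0622).

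Set against untreated cells, CsA-treated cells had less Fos at day 3, with a difference of -1.48 ± 0.24 (at least 2.19-fold, adjusted p = 3.06e-05). At day 0 the difference was -0.82 ± 0.24 (1.77-fold, adjusted p = 0.0251), a call lost without untreated day 0 replicate 1 (adjusted p = 0.246) or CsA day 0 replicate 2 (0.253). The day 1 difference was -0.47 ± 0.24 (adjusted p = 0.23), with 1 of 4 arrays detected. With deltaCnA induced, Fos differed from day 0 by -0.64 ± 0.24 at day 1 (adjusted p = 0.0883) and by 0.33 ± 0.24 at day 4 (adjusted p = 0.583). The day 1 difference passed with the replicate number as a block within each time course (adjusted p = 0.044) and with only the groups compared (0.0478). Before induction the line had less Fos than untreated parental cells, with a difference of -0.86 ± 0.24 (1.82-fold, adjusted p = 0.0147). That call was lost without untreated day 0 replicate 1 (adjusted p = 0.186), deltaCnA day 0 replicate 1 (0.0866) or deltaCnA day 0 replicate 2 (0.0652).

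Jun, the founding member of the AP-1 family, was detected on 5 of 18 arrays. Its log2 levels during LIF withdrawal were 4.87 and 5.10 at day 0, 5.33 and 4.62 at day 1, and 6.64 and 6.91 at day 3. With CsA they were 5.39 and 4.76 at day 0, 4.55 and 4.84 at day 1, and 5.06 and 5.22 at day 3, of which 5.39 and 5.22 were detected. All 6 deltaCnA arrays, between 4.61 and 4.85, were below detection. The untreated day 3 arrays stood alone above the other groups, which overlapped one another in order of their means. Because Jun was tested only through its level at untreated day 3, differences from that group were favoured in advance, and their p-values are no support. Jun rose by 1.79 ± 0.22 between days 0 and 3 of LIF withdrawal (at least 3.09-fold, adjusted p = 7.95e-07 in limma). With CsA the same change was 0.07 ± 0.22 (adjusted p = 0.867), and at day 3 the difference between CsA-treated and untreated cells was -1.63 ± 0.22 (at least 2.99-fold, adjusted p = 3.99e-06).

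Junb, a Jun family protein that often opposes Jun, was detected on 18 of 18 arrays. Its log2 levels during LIF withdrawal were 8.02 and 8.26 at day 0, 6.35 and 6.12 at day 1, and 7.77 and 8.35 at day 3. With CsA they were 7.29 and 7.47 at day 0, 6.42 and 5.97 at day 1, and 5.61 and 6.05 at day 3. In the deltaCnA line they were 8.44 and 8.62 at day 0, 8.51 and 8.17 at day 1, and 8.15 and 7.81 at day 4. The 3 deltaCnA groups and untreated days 0 and 3 overlapped at the top, CsA day 0 lay below them, and untreated day 1 and CsA days 1 and 3 overlapped at the bottom.

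Junb fell by 1.90 ± 0.21 at day 1 of LIF withdrawal (3.73-fold, adjusted p = 1.12e-06) and rose by 1.82 ± 0.21 from day 1 to day 3 (3.53-fold, adjusted p = 3.93e-07), which left a net change of -0.08 ± 0.21 (95% interval -0.52 to 0.35). With CsA it fell by 1.18 ± 0.21 at day 1 (2.27-fold, adjusted p = 0.000971), and from day 1 to day 3 it changed by -0.36 ± 0.21 (adjusted p = 0.232). CsA-treated cells had less Junb at day 3, with a difference of -2.23 ± 0.21 (4.68-fold, adjusted p = 1.8e-08), whereas at day 1 the difference was -0.04 ± 0.21 (95% interval -0.48 to 0.39). At day 0 it was -0.76 ± 0.21 (1.69-fold, adjusted p = 0.0192), a call lost without untreated day 0 replicate 2 (adjusted p = 0.154) or CsA day 0 replicate 1 (0.153). After deltaCnA induction neither day passed, at -0.19 ± 0.21 and -0.55 ± 0.21 (adjusted p = 0.177 for day 4).

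Jund, the Jun family member with the steadiest expression in most tissues, was detected on 18 of 18 arrays. During LIF withdrawal its log2 levels were 6.58 and 6.84 at day 0, 6.58 and 6.80 at day 1, and 7.95 and 7.70 at day 3. With CsA they were 6.89 and 6.79 at day 0, 6.83 and 6.95 at day 1, and 6.72 and 6.98 at day 3. Those of the deltaCnA line were 6.94 and 6.96, then 7.12 and 7.07, then 6.78 and 6.89. Apart from the 2 untreated day 3 arrays, every array lay between 6.58 and 7.12. Jund rose by 1.11 ± 0.17 between days 0 and 3 of LIF withdrawal (2.16-fold, adjusted p = 1.03e-05). With CsA its change over the same days was 0.01 ± 0.17 (95% interval -0.34 to 0.36), and at day 3 the difference from untreated cells was -0.97 ± 0.17 (1.96-fold, adjusted p = 6.85e-05).

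Ier3 was detected on 18 of 18 arrays. Its log2 levels during LIF withdrawal were 8.71 and 8.85 at day 0, 7.86 and 8.01 at day 1, and 8.98 and 9.29 at day 3. With CsA they were 8.69 and 9.01 at day 0, 7.64 and 8.09 at day 1, and 6.42 and 6.74 at day 3. In the deltaCnA line they were 9.0 and 8.34 at day 0, 9.99 and 9.19 at day 1, and 9.31 and 8.89 at day 4. The CsA day 3 arrays were lowest, untreated day 1 overlapped CsA day 1 above them, and the 6 higher groups formed a run in which neighbours overlapped.

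Ier3 fell by 0.85 ± 0.23 at day 1 of LIF withdrawal (1.80-fold, adjusted p = 0.0221), a call lost without any 1 of the 4 arrays compared (adjusted p = 0.0605 to 0.167), and rose by 1.20 ± 0.23 from day 1 to day 3 (2.31-fold, adjusted p = 0.0003). Its net change to day 3, 0.36 ± 0.23, did not pass (adjusted p = 0.251) but did with the replicate block within each time course (0.0229). With CsA it fell by 0.98 ± 0.23 at day 1 (1.98-fold, adjusted p = 0.0123) and by a further 1.29 ± 0.23 to day 3 (2.44-fold, adjusted p = 0.000304). The first of these was lost without CsA day 0 replicate 2 (adjusted p = 0.157) or CsA day 1 replicate 1 (0.213). At day 3 CsA-treated cells had less Ier3, with a difference of -2.56 ± 0.23 (5.89-fold, adjusted p = 1.03e-08), whereas the differences at day 0, of 0.07 ± 0.23, and at day 1, of -0.06 ± 0.23, did not pass. Ier3 was the only tested gene of the 8 that rose after 1 day of deltaCnA induction, by 0.92 ± 0.23 (1.89-fold, adjusted p = 0.0132). That call was lost without deltaCnA day 0 replicate 2 (adjusted p = 0.245) or deltaCnA day 1 replicate 1 (0.324). At day 4 the difference from day 0 was 0.43 ± 0.23 (adjusted p = 0.411), or adjusted p = 0.0358 with the replicate block.

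**Figure D1:**
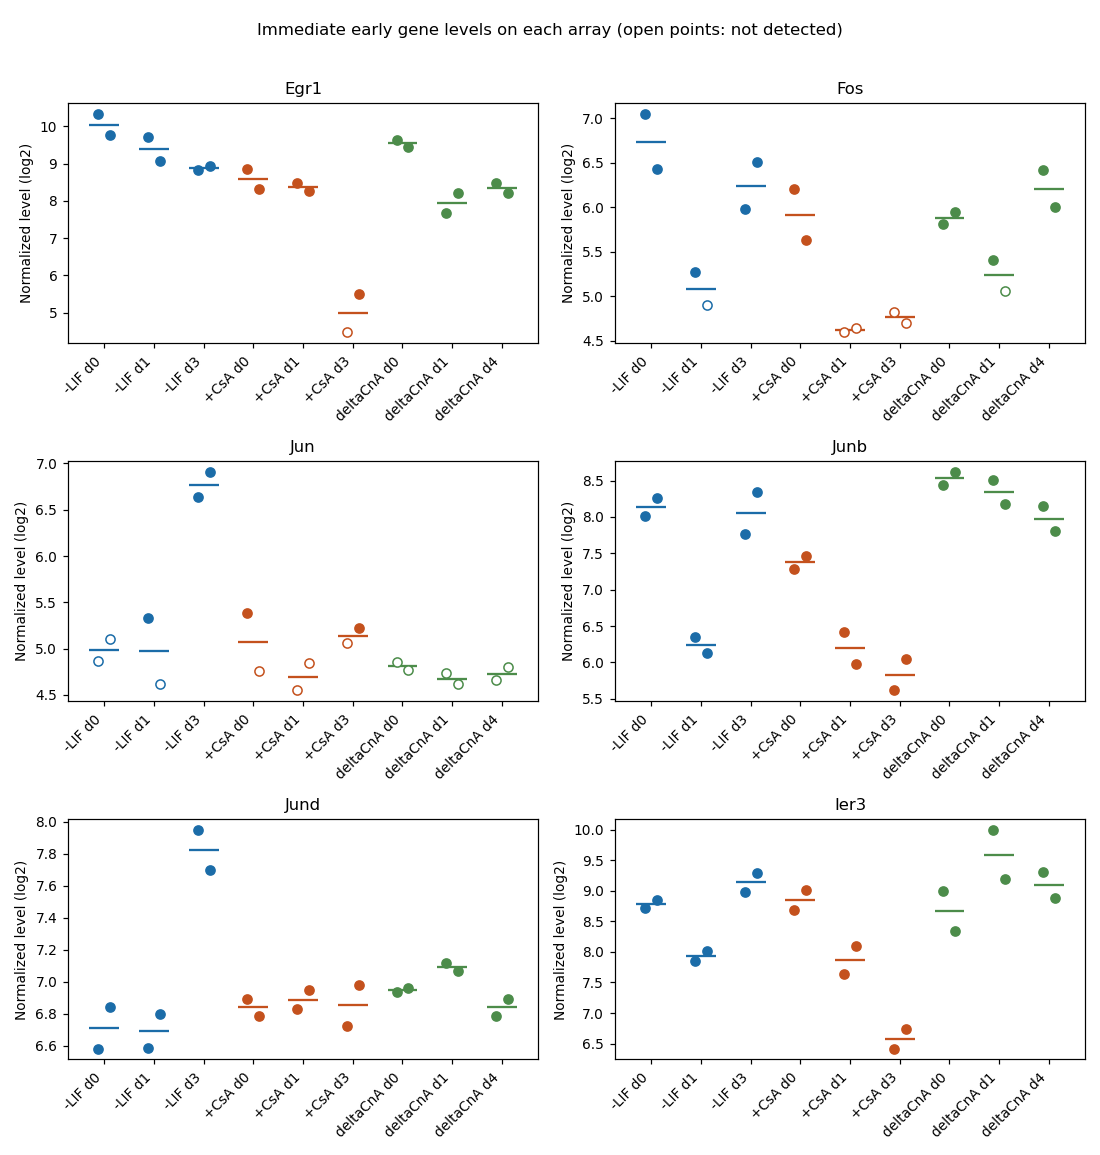
Normalized log2 level (y axis) of the 6 tested genes on each of the 18 arrays by group (x axis; -LIF, LIF withdrawal; +CsA, LIF withdrawal with CsA; d, day). Points are arrays, open where not detected, and lines are means of 2; Egr1 is at 4.47 and 5.49 at day 3 with CsA, and the day 3 arrays without CsA are highest for Jun (6.64 and 6.91) and Jund (7.95 and 7.70).

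After the first day without LIF, Fos, Junb and Ier3 were lower and none of the 6 tested genes was higher. Thus 3 of 6 passed in the lower direction, against 4.69% of all 10980 genes tested, of which 409 were higher. The Ier3 call did not hold with an array left out, as given above. The median log2 change was -0.76 for the 6 and -0.01 for all genes. With CsA, Fos, Junb and Ier3 fell at day 1 too, again 3 of 6, against 2.19% of all genes. The test of whether the day 1 change differed with CsA passed for 0 of the 6 in limma, against 0.0729% of all genes in either direction. The largest difference of the 6 was that of Junb, at 0.72 ± 0.30, which did not pass (adjusted p = 0.791).

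From day 1 to day 3 without LIF, Fos, Jun, Junb, Jund and Ier3 rose, 5 of 6, against 15.7% of all genes. Jun was tested only because of its level at untreated day 3, a group of this comparison, and without it the count was 4 of 5. Over the whole 3 days Jun and Jund rose and Egr1 fell, 3 of 6 in either direction, against 38.2% of all genes, which is a similar share. Here too Jun was tested only through untreated day 3, and without it 1 of 5 rose and 1 of 5 fell. With CsA none of the 6 rose from day 1 to day 3, where 1287 of all 10980 genes rose. Egr1 and Ier3 fell, 2 of 6 against 12% of genes lower. Over the 3 days with CsA, Egr1, Fos, Junb and Ier3 fell, 4 of 6 against 14.6%, with a median of -1.35 for the 6 and -0.01 for all genes.

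At day 3 the 6 tested genes were lower with CsA than without it, 6 of 6, against 19.1% of all genes lower and 38.1% changed in either direction. Their median difference was -1.93, and that of all genes was 0.01. Jun counts among the 6 only because of its level in the untreated group, and without it the count was 5 of 5 (median -2.23). The calls for all 6 were kept under every alternative setting and with each of the 4 arrays left out in turn. At day 0 it was 3 of 6 (Egr1, Fos and Junb), against 6.99% of all genes lower and 13.2% in either direction, and at day 1 it was 1 of 6 (Egr1), against 5.34%.

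The change from day 0 to day 3 itself differed with CsA for 5 of the 6, all more negative with CsA, against 7.3% of all genes in that direction. Jun again was tested only through untreated day 3, and without it the count was 4 of 5. The differences were -2.63 ± 0.33 for Ier3 (adjusted p = 5.43e-06), -2.44 ± 0.37 for Egr1 (6.51e-05), -1.72 ± 0.32 for Jun (0.00054), -1.47 ± 0.30 for Junb (0.0014) and -1.10 ± 0.24 for Jund (0.00237). For Fos the difference was -0.66 ± 0.34 (95% interval -1.36 to 0.04, adjusted p = 0.211). This test and the day 3 comparison use the same day 3 arrays.

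**Figure D2:**
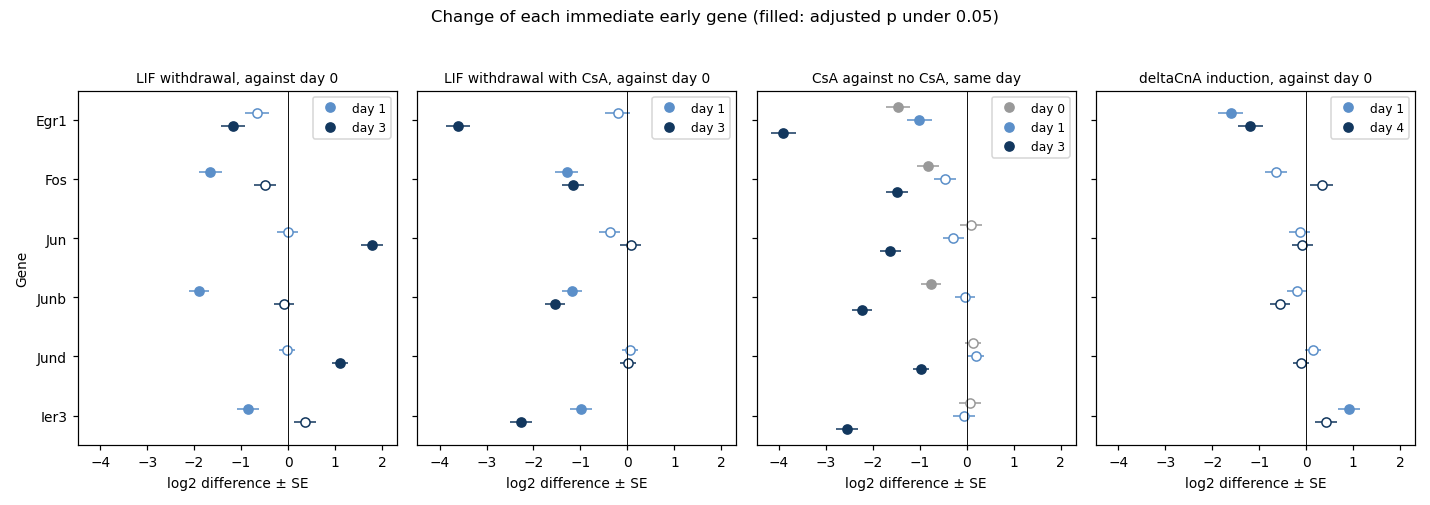
Log2 differences (x axis, points with ± 1 SE; filled, adjusted p under 0.05) of the 6 tested genes (y axis) for LIF withdrawal, LIF withdrawal with CsA, CsA against no CsA at the same day, and deltaCnA induction. The day 3 points against untreated cells all lie left of 0, from -0.97 for Jund to -3.90 for Egr1, whereas the deltaCnA line has 1 point filled to the right, Ier3 at day 1 (0.92).

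After 1 day of deltaCnA induction Ier3 rose and Egr1 fell, 2 of 6 in either direction, against 11.2% of all genes. At day 4 Egr1 was lower, 1 of 6, against 0.774% of all genes lower (3.42% in either direction). With the replicate block within each time course, Ier3 passed too at day 4, 2 of 6, and the count over all genes went from 376 to 780. Before induction, 1 of 6, Fos, differed from untreated parental cells, against 17.4% of all genes in either direction; there, line, culture and array background cannot be told apart.

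Other immediate early genes were followed in 2 lists. Of 21 other transcription factors of this class 12 were tested, and of 32 immediate early genes that are not transcription factors, such as MAP kinase phosphatases, matricellular proteins and feedback inhibitors, 30 were tested. At day 3 of LIF withdrawal the 30 genes gave 14 higher and 5 lower than day 0 (median 0.35; all genes -0.05), and the 12 factors 4 higher and 2 lower (median 0.20), against 18.4% of all genes higher and 19.8% lower. Of the 30, Dusp2, Thbs1 and Tnfaip3 were tested only because of their level at untreated day 3, and without them 11 of 27 were higher and 5 lower (median 0.31). Ccn1, a secreted matrix-associated protein and SRF target, rose by 2.91 ± 0.21 (7.52-fold), Dusp4, a nuclear MAP kinase phosphatase, by 2.74 ± 0.23 (6.68-fold) and Thbs1, thrombospondin, by 2.16 ± 0.16 (at least 2.82-fold). Socs3, the feedback inhibitor induced by STAT3, fell by 3.43 ± 0.20. Among the factors, Klf4 and Klf2, which maintain the undifferentiated state, fell by 3.64 ± 0.17 and 1.67 ± 0.14, while Klf6 rose by 1.88 ± 0.10 (3.69-fold) and Atf3, a stress-induced AP-1 partner, by 1.57 ± 0.24 (at least 2.04-fold).

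Set against untreated cells at day 3, CsA-treated cells had 17 of the 30 genes lower and 6 higher, with a median of -0.64, and 5 of the 12 factors lower and 2 higher, with a median of -0.15 (all genes 0.01), against 19.1% of all genes lower and 19% higher. Without Dusp2, Thbs1 and Tnfaip3 it was 14 of 27 lower and 6 higher (median -0.42). The lower genes included Ccn1, at -3.52 ± 0.21 (at least 8.41-fold, adjusted p = 2.45e-11), Thbs1, at -2.24 ± 0.16 (at least 2.87-fold), Dusp6, an ERK phosphatase, at -1.96 ± 0.25 (3.89-fold), and Trib1, a pseudokinase, at -1.47 ± 0.21 (at least 2.02-fold). Among the factors Srf was at -1.47 ± 0.13 (2.78-fold, adjusted p = 5.23e-09), Myc at -1.45 ± 0.27 (at least 2.27-fold) and Csrnp1, a nuclear protein, at -1.36 ± 0.21 (2.57-fold), whereas Klf4 was higher by 2.03 ± 0.17 (4.09-fold). In the test of the day 0 to day 3 change, 15 of the 30 (12 of 27 without those 3) were more negative and 2 more positive with CsA, and of the 12 factors 4 and 2. Of all 10980 genes, 7.3% were more negative in that test and 877 genes were more positive.

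Genes upstream of the immediate early genes and partners of their products were counted as well. Of 28 kinases and factors upstream, among them ERK, JNK and Ras components, 18 were tested, and at day 3 with CsA 6 were lower and 3 higher than without it (median -0.17), against 19.1% and 19% of all genes. Srf, also in the list of factors, and Creb1, at -1.02 ± 0.19 (at least 1.97-fold), had the greatest differences. Mapk9, a member of the JNK family, was higher by 0.71 ± 0.11. Without CsA Srf rose by 1.45 ± 0.13 over the 3 days (2.72-fold) and Stat3 fell by 1.39 ± 0.12. Of 16 AP-1 partners and Egr1 co-repressors 10 were tested, and 2 were lower and 2 higher at day 3 with CsA (median 0.05). These were Atf3 (-0.79 ± 0.24), Nab1, a repressor of Egr1 activity (-0.62 ± 0.20), Atf7 (0.65) and Mafg (0.57).

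**Figure D3:**
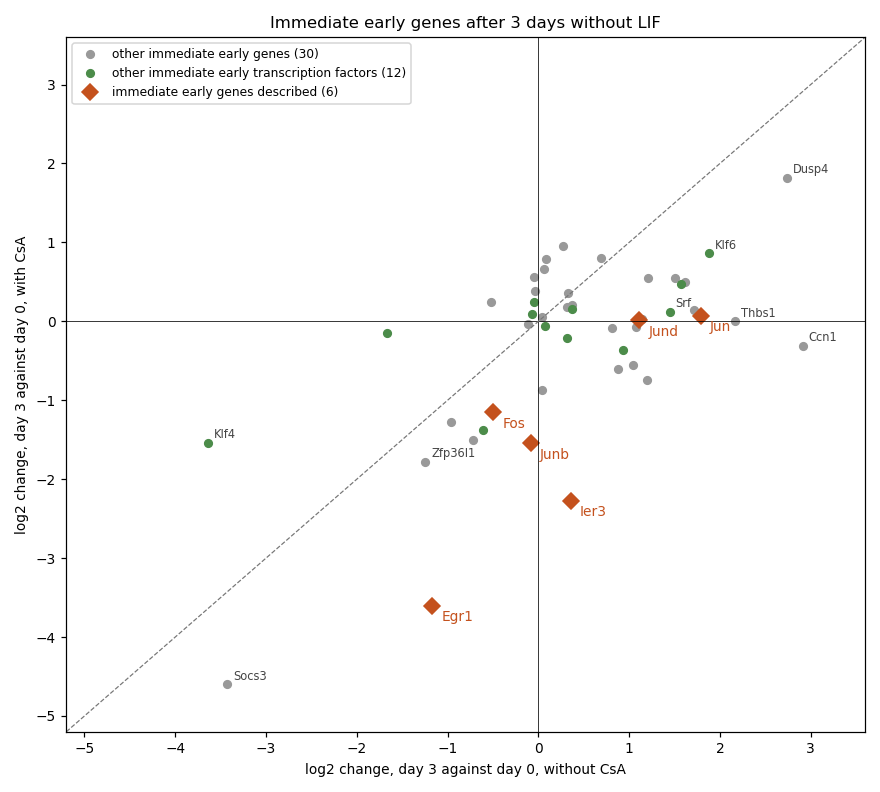
Log2 change from day 0 to day 3 without CsA (x axis) and with CsA (y axis) for the 6 tested genes (diamonds) and the tested members of the 2 other immediate early lists (circles); each point is 1 gene, and the dashed line marks equal change. The 6 diamonds lie below the line, for example Ier3 at 0.36 and -2.27, while Klf4 lies above it.

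Some markers of differentiated cells moved over the same days. Marker counts lower or higher with CsA at day 3 stand beside 19.1% of all genes lower and 19% higher. Of the neuroectoderm markers, 3 of 6 were tested, and 3 rose at day 3 without LIF and were lower with CsA. Nes and Zic1 were tested only because of their level at untreated day 3, so they had to differ, which leaves Pax6, with a rise of 2.35 and a difference of -1.53. The summed level of the 3 was 120.4 to 126.6 at untreated day 0, 512.4 to 607.3 at untreated day 3 and 170.3 to 208.3 at CsA day 3, with Nes and Zic1 not detected in the first and last of these groups. The 3 tested of 9 fibroblast markers summed to 227.6 to 293.6, 485.7 to 516.4 and 186.1 to 195.3 in the same groups, with 2 lower with CsA at day 3, and Dcn was not detected at untreated day 0. The 9 tested embryonic stem cell markers, of 10, summed to 47263 to 49794, 29099 to 30485 and 42000 to 42597, with 4 higher with CsA.

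Of trophectoderm markers 4 of 6 were tested, with sums of 1518 to 1624, 1518 to 1717 and 2818 to 4007. The first 2 sums hide changes in both directions by day 3 without CsA. Krt7 (2.34) and Gata3 (1.58) rose and Tfap2c fell (-0.68), against 18.4% of all genes higher and 19.8% lower. At day 3, 2 were lower and 1 higher with CsA, against 19.1% and 19% of all genes. Of primitive endoderm markers 5 of 9 were tested, with sums of 282.2 to 286.5, 564.9 to 605.4 and 398.3 to 414.1. By day 3 without CsA, Dab2 was the only marker that rose (2.82), and Sox7 fell (-0.70). At day 3, 1 was lower (Dab2, -2.06) and 1 higher (Gata6, 1.29) with CsA. Gata6 was tested only through CsA day 3 and Sox7 only through untreated day 0, so these calls of Gata6 and Sox7 were favoured in advance. Of mesoderm and primitive streak markers 4 of 8 were tested, with sums of 399.8 to 403.3, 429.1 to 462.0 and 519.9 to 537.5. By day 3 without CsA 0 of the 4 passed, and at day 3, 1 was higher with CsA. The part of these markers in the day 3 results was not tested.

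Across the 9 group means, Junb and Ier3 had the most similar profiles among the 6 (Pearson r = 0.87, Spearman rho = 0.65), followed by Jun and Jund (r = 0.85, rho = -0.03), where the rank correlation near 0 goes with a shared high value in a single group. Among all genes tested, Egr1 was most like Atg7 (r = 0.98, rho = 0.83), Psmg1 (0.95) and Rbx1 (0.94), whose group means each spanned under 1 log2 unit. Fos was most like Enkur (r = 0.92), Tbc1d7 (0.88) and Fuom (0.87), and Jun like Parp9 (0.98), Msx1 (0.98) and Pxdc1 (0.98). Junb was most like Fam110a (0.96), Trim16 (0.95) and Cish (0.95), the last a feedback inhibitor of cytokine signalling. Jund was most like Nes (0.96), Trip6 (0.96) and Bcl2 (0.96), and Ier3 like Slc4a2 (0.95), Ddah1 (0.94) and Sema3b (0.93). Nes was tested only through untreated day 3, the group in which Jund was highest as well. Spearman rho with these neighbours ran from 0.63 (Bcl2 with Jund) to 0.97 (Sema3b with Ier3). These are descriptions over 9 points that share arrays, picked from all genes, and carry no test.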

How the data were processed

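Total RNA of 18 samples, 2 per group, was extracted with Trizol and labelled as biotinylated cRNA (Ambion MessageAmp), according to the sample labels. The authors deposited probe intensities on a linear scale, without between-array normalization per the file headers, each with a detection p-value; a second deposited table of intensity values served as an alternative, and its normalization is not given in the sources used here. Groups were taken from the sample titles.

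With limma 3.58.1 in R 4.3.3, background was modelled by normexp from the detection p-values (offset 16), followed by quantile normalization and log2. Of 46632 probes, the 21691 that some group had detected (p under 0.05) on both of its arrays were kept. Each gene was represented by its brightest such probe, giving 10980 genes. All 14 comparisons were contrasts in 1 model of the 9 group means with 9 residual degrees of freedom and an intensity trend, with Benjamini-Hochberg adjustment over all genes and a threshold of 0.05. The fit was tested on simulated data.

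The 8 genes and the gene lists (other immediate early transcription factors, other immediate early genes, upstream kinases and factors, AP-1 partners and Egr1 co-repressors, heat shock and handling stress, and 6 marker lists) were chosen with earlier results of these data known. Named are all 8 genes, at most 4 called genes per list and comparison by size of change, and the 3 most similar genes per tested gene. Promoters came from RefSeq (GRCm38.p6).

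Groups share replicate numbers. Deviations of same-numbered arrays correlated above 0.1 in 3 of 3 group pairs within each time course (0.22 to 0.35 for LIF withdrawal, 0.16 to 0.25 with CsA, 0.13 to 0.20 for deltaCnA), in 7 of 9 pairs between LIF withdrawal with and without CsA (0.05 to 0.35), and in 0 of 18 between deltaCnA and the others (-0.21 to 0.06). From the data and not from the labels, same-numbered arrays thus appeared paired within a time course, and largely also between LIF withdrawal with and without CsA. The main fit held no replicate block, so its p-values do not use this pairing. Blocks served only as alternatives. Alternatives were median scaling, no background correction, an offset of 50, no detection filter, the mean of a gene's probes, the second table, a replicate block over all groups and, chosen after seeing the data, within each time course or each experiment, only the groups compared, no intensity trend, and each array left out. The number of arrays limits the precision.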

Additional observations from a re-analysis of the deposited data

Results flagged for a closer look

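The change from day 0 to day 3 of LIF withdrawal differed between cells with and without CsA, by the interaction test of limma, for 5 of the 6 tested genes, or 4 of 5 without Jun, which was tested only because of its level at untreated day 3. The difference (change with CsA minus change without) was -2.44 for Egr1, -1.72 for Jun, -1.47 for Junb, -1.10 for Jund and -2.63 for Ier3. These calls were kept in each of the 19 alternative fits of that comparison, 8 of which left out 1 array. The lowest and highest values over those fits were -2.95 and -1.54 for Egr1, -2.03 and -1.10 for Jun, -1.75 and -1.07 for Junb, -1.23 and -0.90 for Jund, and -2.79 and -2.27 for Ier3. Egr1 was below detection on 1 of 2 CsA day 3 arrays, so its difference rests in part on a value at background. Jun was below detection on both untreated day 0 arrays and on 1 of 2 arrays of each CsA group compared.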

How the results depend on the processing

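No log2 change of the 6 genes that had passed changed sign. Of 924 values with all arrays, 908 kept their direction and side of the threshold, and of 384 with 1 array left out, 359 did. A replicate block over all groups left the count of the 6 genes called the same in each comparison (6 for CsA against no CsA at day 3) and moved the count over all genes there from 4183 to 4352. A block within each time course, or within each experiment (LIF and CsA arrays, deltaCnA arrays), both chosen after seeing the data, took the count for deltaCnA day 4 from 1 to 2 and 2; the calls gained were Ier3 there and at untreated day 3, and Fos at deltaCnA day 1, and no other call of the 6 genes changed. For CsA against no CsA at day 1 the count of 1 became 2 with no background correction and 2 with the second deposited table, and 0 to 1 with an array left out. With only the groups compared it became 2 for deltaCnA day 4 and 2 for the deltaCnA line against parental cells; with an array left out it was 0 to 0 and 0 to 1, and 1 to 2 for deltaCnA day 1. For Ier3 at day 1 without LIF the call was lost with no detection filter (adjusted p = 0.0525) and no intensity trend (0.0604), and for Fos under CsA at day 0 with no detection filter (0.0665) and only the groups compared (0.0795). The cause was not tested.

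Over all genes, counts moved more than 1.5 times with only the groups compared for CsA at day 0 (730, from 1446) and deltaCnA day 4 (684, from 376), and for the day 1 interaction (1 to 24, from 8). The block within each time course gave 827 (498) for CsA day 1, 2277 (1446) and 1959 (1181) for CsA against no CsA at days 0 and 1, and 2033 (1226) and 780 (376) for deltaCnA days 1 and 4. With 1 array left out they ran from 476 to 727 (main 924) for LIF day 1, 236 to 294 (498) for CsA day 1, 2032 to 2781 (3246) for CsA day 3 and 1290 to 2228 (2605) for CsA day 3 against day 1. For CsA against no CsA they ran from 465 to 1065 (1446) at day 0 and 446 to 766 (1181) at day 1, and for the day 1 and day 3 interactions from 2 to 8 and 998 to 1804 (1678). For deltaCnA they ran from 239 to 1099 (1226) at day 1, 108 to 230 (376) at day 4 and 803 to 1588 (1911) for the line. Median scaling moved the share of higher calls for CsA at day 0 from 46.9% to 34.7%. Signal over background limits Fos and Jun.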

Other observations

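Genes of heat shock and handling stress, which can respond to the harvest of cells as immediate early genes do, were tested for 9 of 14. At day 3 with CsA 2 were lower than without it (19.1% of all genes), the chaperone genes Dnajb1 (-1.06 ± 0.15) and Hsph1 (-0.89 ± 0.13). Another 2 were higher (19% of all genes), the growth arrest genes Gadd45a (1.03 ± 0.13) and Gadd45g (0.92 ± 0.16). The median difference was 0.05, against 0.01 for all genes. The summed level of the 9 ran from 29773 to 35446 at untreated day 0, from 19972 to 21490 at untreated day 3 and from 19752 to 23113 at CsA day 3. Gadd45g rose by 3.11 ± 0.16 over the 3 days with CsA (adjusted p = 3.5e-12 in limma) and by 1.22 ± 0.16 without it (adjusted p = 1.23e-06), and the difference between these changes was 1.89 ± 0.22 (adjusted p = 2.45e-06).

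In the first day without LIF, Socs3 fell by 4.80 ± 0.20 (27.9-fold) and Stat3 by 1.74 ± 0.12 (3.34-fold), while Jdp2, a repressor that pairs with Jun proteins, fell by 1.20 ± 0.23. Jdp2 also fell by 1.16 ± 0.23 after 1 day of deltaCnA induction. Of the 30 other immediate early genes, 4 rose and 2 fell at that time, against 11.2% of all genes in either direction. Gadd45b was among the 30 only because of its level at deltaCnA day 1, a group of this comparison. At day 4, 1 of the 30 rose and 0 fell, against 3.42%. Trib1 rose at both days, by 1.37 ± 0.21 (at least 2.50-fold) and 1.71 ± 0.21 (at least 3.16-fold). Among the 30, 2 were lower and 3 higher with CsA than without it at day 0, against 13.2% of all genes in either direction.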
